A study of Mus musculus with 16 samples.

Results

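The genes examined here are 10 members of growth hormone and insulin-like growth factor (IGF) signalling: Socs2, Cish, Socs3, Ghr, Igf1r, Stat5b, Igf1, Igf2, Igfbp5 and Igfbp3. They were taken as all 11 probes that the platform annotation assigns to these genes (Ghr has 2), of which 10 probes of 9 genes were kept because their detection p-value was under 0.05 on at least 4 of 16 arrays, among 12364 of 25697 probes kept in all. The arrays measured total RNA from the quadriceps of adult FVB/n mice in 4 groups of 4. The groups were HSALR transgenic mice injected with antisense oligonucleotide (ASO) 445236, HSALR transgenic mice injected with ASO 190401, HSALR transgenic mice injected with saline, and wild-type (WT) mice injected with saline, all given subcutaneously for 4 weeks. In HSALR mice a human skeletal actin (HSA) transgene, active in skeletal muscle, carries a long repeat (LR) of CUG, which models the repeat RNA of myotonic dystrophy in that tissue only. The labels give neither age in weeks nor sex. They do not say whether samples came from separate animals, and the p-values thus cover the spread between arrays. Socs2 was chosen by its measured difference between the ASOs on these arrays, and the other members with earlier results of these data known, so its values in the ASO groups are given as a description, with no test, and no member is tested between the ASOs.

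Growth hormone binds its receptor, the product of Ghr, which activates the kinase JAK2 and the transcription factor STAT5. STAT5 induces Igf1 and a set of feedback inhibitors, among them CISH and SOCS2, while SOCS3 also restrains cytokine receptors that signal through STAT3. IGF-1 and IGF-2 act through the receptor encoded by Igf1r to promote muscle growth, and IGF binding proteins hold the ligands outside the cell and alter their access to the receptor. Muscle makes its own IGFs and expresses Ghr.

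Promoter windows were read from RefSeq for GRCm38.p6, from 250 bases before to 50 bases after each annotated start, and 9 of the 10 members matched (14 windows). Socs2 had no window and was not searched. The windows were searched for TTCNNNGAA, the core of the sequence that STAT factors bind, which reads the same on both strands. The motif was present in 2 of the 14 windows, one of Cish and one of Socs3, against 8.3% of all 32851 windows. The Cish window held 2 copies, at offsets 0 to 8 and 11 to 19, with the annotated start at 0. Of all windows, 0.457% held 2 or more. The Socs3 window held 1 copy, at offsets -154 to -146. The letters were not present in the windows of Ghr, Igf1r, Stat5b, Igf1, Igf2, Igfbp5 and Igfbp3. The Cish window (chr9:107296409-107296708, plus strand) and the Socs3 window (chr11:117969317-117969616, minus strand) are shown for the motif, in capitals, and those of Igfbp5 (chr1:72874816-72875115, minus strand) and Igf1 (chr10:87860861-87861160, plus strand) because these genes carried the largest tested differences of a binding protein and of a ligand. A match is a description of the letters and does not show binding.

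Cish: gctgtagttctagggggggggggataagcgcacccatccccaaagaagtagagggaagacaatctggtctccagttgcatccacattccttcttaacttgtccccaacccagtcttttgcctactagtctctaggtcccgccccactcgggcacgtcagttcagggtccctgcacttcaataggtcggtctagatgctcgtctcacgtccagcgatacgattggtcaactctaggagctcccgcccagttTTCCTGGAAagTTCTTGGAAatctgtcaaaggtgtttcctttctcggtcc
Socs3: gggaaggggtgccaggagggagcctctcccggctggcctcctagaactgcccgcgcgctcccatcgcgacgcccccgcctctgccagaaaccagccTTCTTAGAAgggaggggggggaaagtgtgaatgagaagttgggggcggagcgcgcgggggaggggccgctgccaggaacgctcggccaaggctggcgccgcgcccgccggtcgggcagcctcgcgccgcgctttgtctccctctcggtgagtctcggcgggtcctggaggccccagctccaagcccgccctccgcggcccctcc
Igfbp5: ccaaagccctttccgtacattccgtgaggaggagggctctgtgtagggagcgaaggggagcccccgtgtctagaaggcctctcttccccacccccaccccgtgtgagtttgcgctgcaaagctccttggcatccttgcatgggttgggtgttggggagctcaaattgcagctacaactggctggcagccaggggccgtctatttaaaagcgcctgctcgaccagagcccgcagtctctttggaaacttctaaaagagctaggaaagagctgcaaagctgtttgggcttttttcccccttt
Igf1: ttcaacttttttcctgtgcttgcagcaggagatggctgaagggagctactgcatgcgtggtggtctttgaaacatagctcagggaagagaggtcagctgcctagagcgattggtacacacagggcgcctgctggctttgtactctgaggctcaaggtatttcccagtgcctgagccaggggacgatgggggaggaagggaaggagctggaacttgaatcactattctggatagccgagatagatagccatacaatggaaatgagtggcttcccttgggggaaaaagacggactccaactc

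Values below are log2 normalized intensities, differences are the first-named group minus the second with standard errors, and a call means a limma adjusted p below 0.05 over the 12364 kept probes. Each array had 10835 to 11700 probes above background, and precision is limited by the number of arrays. The ASO 445236 and HSALR saline arrays shared 1 chip, and the ASO 190401 and WT arrays the other, so only ASO 445236 against HSALR saline and ASO 190401 against WT were compared within a chip. In every other comparison chip and group cannot be told apart. Groups whose arrays did not overlap, named below, were common among the 12340 kept probes with no missing value. This held for 18.6% of them for ASO 445236 and 21.1% for ASO 190401 against HSALR saline, and 25.4% for HSALR saline against WT. Against WT it held for 13.2% for ASO 190401 and 12.7% for ASO 445236, and for 9.51% between the ASOs. All 10 muscle fibre markers, Acta1 and Ckm among them, were above background on all 16 arrays. In bulk muscle, fewer cells of a type and less RNA per cell cannot be told apart.

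The arrays also differed within groups in a way that the labels do not record. Xist, the RNA made from the inactive X chromosome of female cells, was above background on 1 of 4 ASO 445236 arrays, 4 of 4 ASO 190401 arrays, 1 of 4 HSALR saline arrays and 3 of 4 WT arrays. Kdm5d, a Y-linked histone demethylase gene, was above background on the other 7 arrays, and no array had both (0 of 16). The array with Xist was replicate 1 in the ASO 445236 and HSALR saline groups, and the array without it was replicate 1 in the WT group. ASO 445236 and HSALR saline therefore had the same number of arrays with Xist, while ASO 190401 differed from HSALR saline, and HSALR saline from WT. A fit with Xist detection as a covariate was chosen after the values were seen. It is given for some Socs2 differences, and where it changes the call or sign of another member. Some calls that it kept changed in size. Igf1 in HSALR saline against WT was then -0.61 (limma adjusted p = 0.0315). For ASO 190401 against HSALR saline, Ghr probe 1 was 0.43 (0.0177) and Igfbp5 was 1.28 (0.000325). No value with the covariate is given for single pathway genes. The fit assumes 1 Xist difference in every group, and the ASO 190401 group has no array without Xist.

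**Figure D1:**
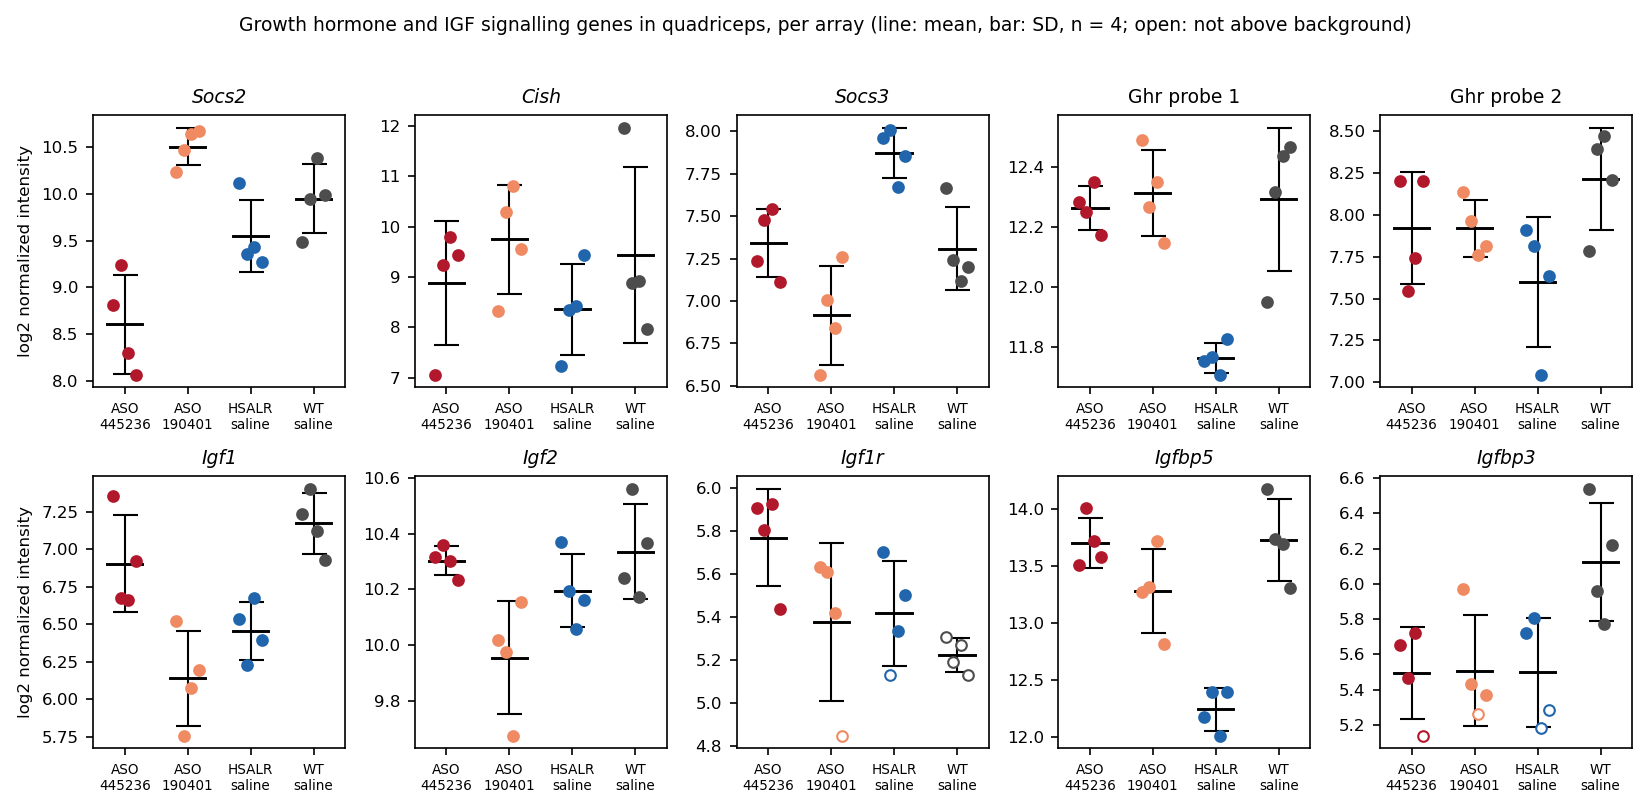
Log2 normalized intensity of each kept member probe (vertical axis) on each of 16 arrays, by group (horizontal axis), with the group mean (line) and SD (bar, n = 4) and with open points for values not above background. HSALR saline is below every other group for Igfbp5 and Ghr probe 1, Socs2 is lowest under ASO 445236 and highest under ASO 190401, and Cish is widely spread within each group.

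Socs2, a STAT5-induced inhibitor that limits growth hormone receptor signalling, lay on opposite sides of HSALR saline under the ASOs. Its values were 8.81, 9.24, 8.30 and 8.06 under ASO 445236, 10.24, 10.47, 10.65 and 10.68 under ASO 190401, 10.12, 9.36, 9.43 and 9.28 in HSALR saline, and 9.49, 9.95, 10.38 and 9.99 in WT. All 4 ASO 445236 arrays lay below all HSALR saline and WT arrays, and all 4 ASO 190401 arrays lay above all HSALR saline arrays but overlapped WT. The mean was 8.60 ± 0.53 under ASO 445236, 10.51 ± 0.20 under ASO 190401, 9.55 ± 0.39 in HSALR saline and 9.95 ± 0.37 in WT (SD, n = 4 each). In order of level, ASO 445236 was lowest, then HSALR saline, WT and ASO 190401, with HSALR saline and WT, and WT and ASO 190401, overlapping. The difference was -1.91 (SE 0.23) between ASO 445236 and ASO 190401, -0.94 (SE 0.23) between ASO 445236 and HSALR saline, and 0.96 (SE 0.23) between ASO 190401 and HSALR saline, none of them tested. The difference between HSALR saline and WT uses no ASO array and was tested. Its spread was estimated from all 16 arrays, the ASO arrays among them. The difference was not called, at -0.41 ± 0.23 (limma adjusted p = 0.206).

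Socs2 was 8.81 to 10.68 on the 9 arrays with Xist and 8.06 to 9.49 on the other 7, a split that also follows the groups. All 4 ASO 190401 arrays had Xist, and 3 of 4 ASO 445236 arrays lacked it. Within ASO 445236 the array with Xist (8.81) lay inside the range of those without it (8.06 to 9.24). Among arrays with Xist, it was 8.81 on the ASO 445236 array, 10.24 to 10.68 on the ASO 190401 arrays, 10.12 on the HSALR saline array and 9.95 to 10.38 on the WT arrays. Among arrays without Xist, it was 8.06 to 9.24 under ASO 445236, 9.28 to 9.43 in HSALR saline and 9.49 in WT. ASO 445236 held the lowest values in both sets, but Socs2 was chosen from these same values, so this order is no separate support. The set with Xist held 1 ASO 445236 array, and the set without it held no ASO 190401 array. With the Xist covariate the difference was -1.49 (SE 0.22) between the ASOs, 0.55 (SE 0.22) between ASO 190401 and HSALR saline and -0.94 (SE 0.18) between ASO 445236 and HSALR saline, again with no test. The last value was the same without the covariate, since those groups hold equal numbers of arrays with Xist.

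Cish, another STAT5-induced inhibitor, varied more within groups than nearly any other probe. Its values were 7.05, 9.24, 9.80 and 9.43 under ASO 445236, 8.33, 10.29, 10.81 and 9.55 under ASO 190401, 7.23, 8.35, 8.42 and 9.43 in HSALR saline, and 11.96, 8.87, 8.92 and 7.97 in WT. All groups overlapped, and its within-group SD of 1.28 ranked 10 of 12364 probes, against a median of 0.216. No tested comparison was called, with differences of 0.52 ± 0.72 for ASO 445236 against HSALR saline (limma adjusted p = 0.714), 1.39 ± 0.72 for ASO 190401 against HSALR saline (0.223) and -1.08 ± 0.72 for HSALR saline against WT (0.297). In each of the 3 groups that held both kinds of array, the arrays with Xist were the lower ones. Cish was 7.05 with Xist and 9.24 to 9.80 without it under ASO 445236, 7.23 with and 8.35 to 9.43 without it in HSALR saline, and 7.97 to 8.92 with and 11.96 without it in WT. The Xist term for Cish was -2.44 ± 0.39 (limma adjusted p = 0.00119, with 2.25% of all probes called for this term), opposite in sign to that of Socs2 at 0.55 (SE 0.17, no test). With Xist in the fit, Cish was called in 3 comparisons, at 3.22 ± 0.50 for ASO 190401 against HSALR saline (adjusted p = 0.000516), -1.77 ± 0.45 for ASO 445236 against WT (0.0203) and -2.29 ± 0.45 for HSALR saline against WT (0.00116). Since this fit was added after the values were seen, Cish stays uncalled in the planned fit.

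**Figure D2:**
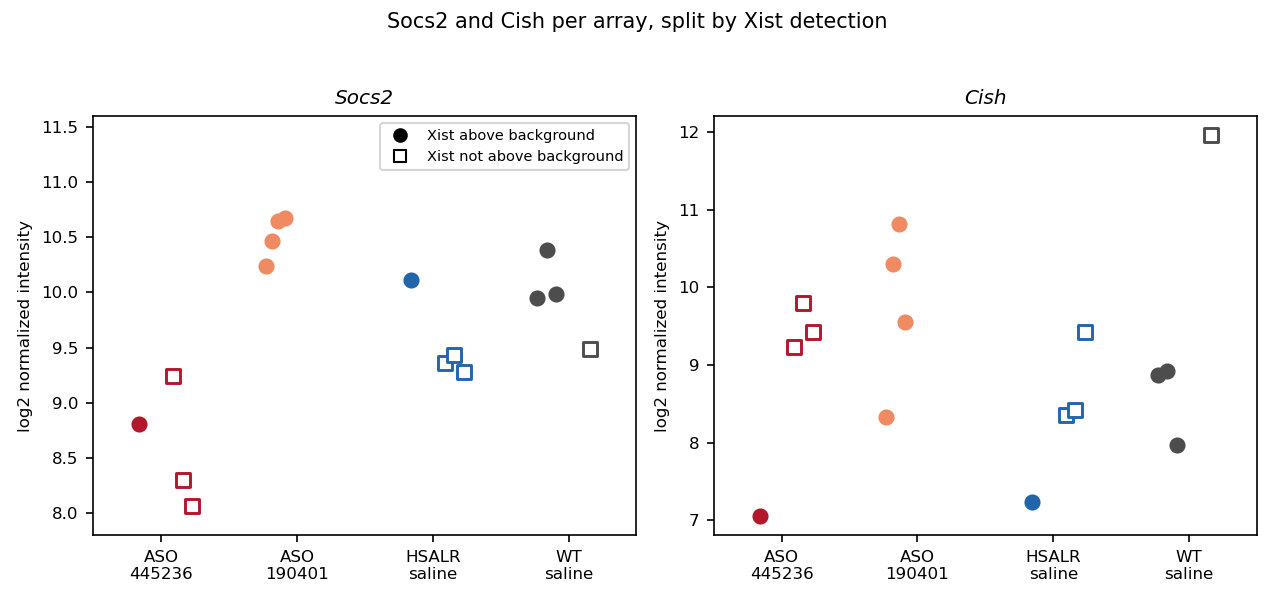
Log2 normalized intensity of Socs2 (left) and Cish (right) on each array by group, with filled circles for arrays with Xist above background and open squares for the others. Cish is lower on the Xist arrays of the ASO 445236, HSALR saline and WT groups. Socs2, chosen for its difference between the ASOs on these arrays, is lowest under ASO 445236 among arrays of either kind.

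Socs3, an inhibitor of gp130 and other cytokine receptors, was higher in HSALR saline than in WT and lower under both ASOs than in HSALR saline. It was 7.24, 7.48, 7.54 and 7.11 under ASO 445236, 6.56, 7.01, 6.84 and 7.26 under ASO 190401, 7.96, 8.005, 7.67 and 7.85 in HSALR saline, and 7.67, 7.24, 7.12 and 7.20 in WT. Every ASO array lay below every HSALR saline array. The difference was -0.53 ± 0.16 for ASO 445236 against HSALR saline (limma adjusted p = 0.0348), -0.95 ± 0.16 for ASO 190401 against HSALR saline (0.000464) and 0.56 ± 0.16 for HSALR saline against WT (0.0129). The ASO 445236 call was lost without ASO 445236 replicate 1 (0.0842) or 4 (0.113), or HSALR saline replicate 1 (0.0839), 2 (0.0966) or 4 (0.0702), and under median scaling (0.151), chip position as a covariate (0.0624) or no detection filter (0.0547). With the Xist covariate the HSALR saline against WT call was lost (0.48, adjusted p = 0.0522) and both ASO calls were kept (0.0272 and 0.00997). Neither ASO differed from WT past the threshold, at 0.035 for ASO 445236 (0.92) and -0.39 for ASO 190401 (0.138).

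Ghr, the growth hormone receptor gene, was lower in HSALR saline than in WT by both of its probes. Its brighter probe read 12.28, 12.25, 12.35 and 12.17 under ASO 445236, 12.49, 12.27, 12.35 and 12.15 under ASO 190401, 11.76, 11.77, 11.71 and 11.83 in HSALR saline, and 11.95, 12.32, 12.44 and 12.47 in WT. All HSALR saline arrays lay below all others. The brighter probe differed by 0.50 ± 0.096 for ASO 445236 against HSALR saline (limma adjusted p = 0.00166), by 0.55 ± 0.096 for ASO 190401 against HSALR saline (0.000746) and by -0.53 ± 0.096 for HSALR saline against WT (0.000449), and it was within 0.05 of WT under both ASOs (-0.029 and 0.020). The dimmer probe was 7.54 to 8.20 under ASO 445236, 7.76 to 8.14 under ASO 190401, 7.04 to 7.91 in HSALR saline and 7.79 to 8.47 in WT, with overlap between all groups. It was called in HSALR saline against WT at -0.61 ± 0.19 (0.0255) and not under ASO 445236 (0.32 ± 0.19, 0.323) or ASO 190401 (0.32 ± 0.19, 0.306) against HSALR saline. That call was lost without HSALR saline replicate 3 (0.104), without WT replicate 2 (0.0708) or 3 (0.0791), and with the Xist covariate (-0.39, 0.131).

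Igf1r, the receptor tyrosine kinase for both IGFs, was close to background. It was above background on 4 of 4 ASO 445236 arrays, 3 of 4 ASO 190401 arrays, 3 of 4 HSALR saline arrays and 0 of 4 WT arrays. Values were 5.44 to 5.93 under ASO 445236, 4.85 to 5.63 under ASO 190401, 5.13 to 5.70 in HSALR saline and 5.13 to 5.31 in WT. Against WT, ASO 445236 stood at least 1.32-fold higher, a difference that was not called (limma adjusted p = 0.0644), though it passed without ASO 445236 replicate 4 (0.0458) or ASO 190401 replicate 4 (0.0359), with no background correction (0.0389) and under median scaling (0.0342). Igf1r (10 of 16 arrays) and Igfbp3 (12 of 16) were the members nearest to the detection limit for keeping a probe, while Stat5b, which encodes one of the STAT5 proteins, was above background on 0 of 16 arrays at 4.57 to 5.03 and was left out.

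Igf1 was lower in HSALR saline and under ASO 190401 than in WT. Values were 7.36, 6.68, 6.66 and 6.92 under ASO 445236, 6.52, 5.76, 6.08 and 6.20 under ASO 190401, 6.53, 6.23, 6.67 and 6.39 in HSALR saline, and 7.24, 7.40, 7.12 and 6.93 in WT. The WT arrays lay above all HSALR saline and all ASO 190401 arrays, and ASO 445236 overlapped both saline groups. Igf1 differed by -0.72 ± 0.18 for HSALR saline against WT (limma adjusted p = 0.00688) and by -1.03 ± 0.18 for ASO 190401 against WT (0.00116) and the second of these lies within a chip. It was not called for ASO 445236 against HSALR saline (0.45 ± 0.18, 0.125, though 0.0204 under median scaling), for ASO 190401 against HSALR saline (-0.32 ± 0.18, 0.274) or for ASO 445236 against WT (-0.27 ± 0.18, 0.389). Between the ASOs, with no test, the difference was 0.76.

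Igf2, which encodes a growth factor also expressed in differentiating myoblasts, was lower under ASO 190401 than in WT. It was 10.32, 10.36, 10.30 and 10.23 under ASO 445236, 10.02, 9.98, 9.67 and 10.15 under ASO 190401, 10.37, 10.19, 10.06 and 10.16 in HSALR saline, and 10.24, 10.56, 10.17 and 10.37 in WT. All ASO 190401 arrays lay below all WT arrays, where 13.2% of all probes had no overlap between these groups. The difference was -0.38 ± 0.10 (limma adjusted p = 0.0245), a call lost without ASO 190401 replicate 2 (0.0524) or 3 (0.0787) or WT replicate 2 (0.0843) or 4 (0.0523), and on chip 2 alone (0.0898), with no intensity trend (0.0509) or under median scaling (0.422). HSALR saline against WT was -0.14 ± 0.10 (0.345).

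Igfbp5, an IGF binding protein that rises as muscle cells differentiate, had the largest tested difference of the members in the planned fit of all 16 arrays, while Cish exceeded it with the Xist covariate and in some fits with 1 array left out. It read 13.51, 14.01, 13.72 and 13.58 under ASO 445236, 13.27, 13.32, 13.73 and 12.81 under ASO 190401, 12.17, 12.39, 12.01 and 12.39 in HSALR saline, and 14.18, 13.74, 13.69 and 13.31 in WT. No HSALR saline array reached any array of another group. Igfbp5 rose by 1.46 ± 0.17 under ASO 445236 against HSALR saline (2.76-fold, limma adjusted p = 1.4e-05) and by 1.04 ± 0.17 under ASO 190401 against HSALR saline (2.06-fold, 0.000472), and it was lower in HSALR saline than in WT at -1.49 ± 0.17 (2.81-fold, 4.2e-06). Against WT it was -0.027 ± 0.17 under ASO 445236 (0.946) and -0.45 ± 0.17 under ASO 190401 (0.118). The last passed without ASO 190401 replicate 3 (0.0358) or WT replicate 4 (0.0416).

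Igfbp3, the main carrier of IGFs in serum, was near background, on 3 of 4 ASO 445236 arrays, 3 of 4 ASO 190401 arrays, 2 of 4 HSALR saline arrays and 4 of 4 WT arrays above it. It was 5.14 to 5.72 under ASO 445236, 5.26 to 5.97 under ASO 190401, 5.18 to 5.81 in HSALR saline and 5.77 to 6.54 in WT. It was called in HSALR saline against WT at -0.62 ± 0.21 (limma adjusted p = 0.0322). That call was lost without HSALR saline replicate 3 (0.104) or 4 (0.0915), without WT replicate 1 (0.098) or 4 (0.0722), with no detection filter (0.0683), and with the Xist covariate (0.0597). Differences from WT of nearly equal size, -0.63 under ASO 445236 (0.0604) and -0.62 under ASO 190401 (0.0705), were not called. Without ASO 190401 replicate 1 or WT replicate 3 both passed (0.0483 and 0.0432 for ASO 445236, 0.0334 and 0.0482 for ASO 190401). Both also passed with chip position as a covariate (0.0301 for ASO 445236, 0.0161 for ASO 190401), and ASO 190401 under median scaling (0.0421).

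**Figure D3:**
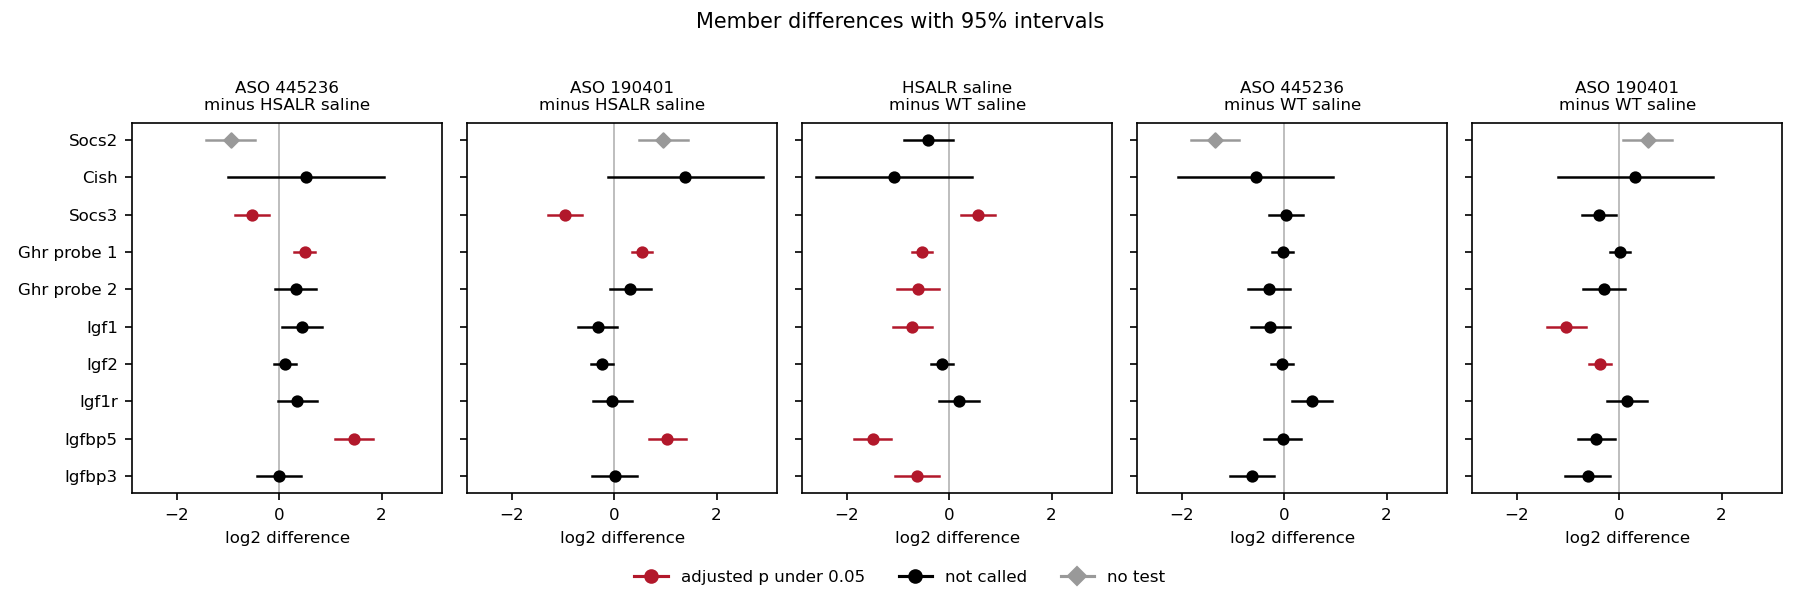
Log2 difference (horizontal axis) with 95% interval for each member probe (vertical axis) in 5 comparisons, in red where the adjusted p was under 0.05, in black where it was not, and as grey diamonds where no test was made. Igfbp5 and Ghr probe 1 lie above 0 under both ASOs against HSALR saline and below 0 in HSALR saline against WT.

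Over the members tested, 3 of 9 probes were called for ASO 445236 against HSALR saline (2 higher, 1 lower), where 12.1% of all probes were called, 6.09% higher and 6.01% lower. For ASO 190401 against HSALR saline 3 of 9 were called (2 higher, 1 lower), against 13.9% of all probes, 7.13% higher and 6.75% lower. For HSALR saline against WT 6 of 10 were called (1 higher, 5 lower), against 25.9% of all probes, 13.1% higher and 12.7% lower. For ASO 190401 against WT 2 of 9 were called (0 higher, 2 lower), against 9.13% of all probes, 4.32% higher and 4.81% lower. For ASO 445236 against WT 0 of 9 were called by limma, with 2 at an unadjusted p under 0.05, against 9.72% of all probes, 5.27% higher and 4.45% lower. The median difference of the tested members was 0.35 for ASO 445236 and 0.0088 for ASO 190401 against HSALR saline, and -0.57 for HSALR saline, -0.38 for ASO 190401 and -0.032 for ASO 445236 against WT. Over all probes it lay between -0.023 and 0.020 in these comparisons. Under median scaling the split of all called probes moved, with 85.4% of them higher for ASO 445236 and 86.4% for ASO 190401 against HSALR saline, where quantile normalization gave 50.3% and 51.4%, and with 85.8% for ASO 190401 and 88.6% for ASO 445236 against WT, where it gave 47.3% and 54.2%. The ASO comparisons with HSALR saline share its arrays, as those with WT share the WT arrays. With the Xist covariate the counts were 3 of 9, 4 of 9, 4 of 10, 2 of 9 and 1 of 9, against 14.1%, 7.99%, 21.6%, 11.3% and 8.65% of all probes, in the same order.

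Of 75 other genes of the pathway on the array, 52 were kept, each by its brightest probe. The median difference of the 52 lay between -0.026 and 0.074 in the 5 comparisons. In HSALR saline against WT 8 were higher and 9 lower, where 26.7% of all genes were called, 13.9% higher and 12.8% lower. Among IGF binding and proteolysis genes 4 of 5 were lower and 0 higher. Htra1, a secreted protease that cleaves IGF binding proteins, was lower at -1.49 ± 0.13 (limma adjusted p = 1.42e-07), and the binding protein genes Igfbp4 at -0.84 ± 0.11 (2.67e-05) and Igfbp7 at -0.51 ± 0.10 (0.00126). Grb10, an adaptor that inhibits insulin and IGF-1 receptors, was lower at -1.51 ± 0.15 (9.08e-07). Jak2, the kinase bound to the growth hormone receptor, was higher at 0.97 ± 0.17 (0.000323), and it was the 1 gene called of 9 in the GH receptor and JAK-STAT list. Gsk3b, a kinase inhibited by AKT, was higher at 1.13 ± 0.14 (1.42e-05), among 4 higher and 3 lower of 17 PI3K, AKT and mTOR genes. Junb, an immediate early transcription factor gene, was higher at 0.85 ± 0.25 (0.0157) and Lifr, the receptor gene for leukaemia inhibitory factor, at 0.66 ± 0.18 (0.00939), 2 of 4 genes of the gp130 and STAT3 list, named after their values were seen, while 0 of 3 SOCS family genes other than the members and 0 of 5 STAT5 target genes were called. Beside the lower IGF binding genes and Igf1, 6 of 9 fibroblast markers were lower and 0 higher, with a summed level of 12992 to 14729 in HSALR saline and 20617.9 to 23149.6 in WT, and all 9 above background on every array. Of the adipocyte markers 3 of 3 kept were lower, with summed levels of 383.507 to 1016.87 and 892.543 to 2882.8 and with Fabp4, Retn and Pck1 below background in both groups. Of the markers of regenerating or denervated fibres 5 of 9 were higher and 0 lower, with summed levels of 7530.5 to 9073.59 in HSALR saline and 5083.05 to 5698.35 in WT. The part of these cells in the result was not tested.

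Under ASO 445236 against HSALR saline, 5 pathway genes were higher and 3 lower, where 13% of all genes were called, 6.56% higher and 6.44% lower. Igfbp4 rose by 0.49 ± 0.11 (limma adjusted p = 0.00725) and Bcl6, a transcriptional repressor controlled by STAT5, by 0.47 ± 0.11 (0.00913). Rheb, the activator of mTOR complex 1, rose by 0.26 ± 0.070 (0.0184), Htra1 by 0.43 ± 0.13 (0.0422) and Akt2, the main AKT of insulin-responsive tissue, by 0.54 ± 0.17 (0.0389), while Gsk3b was lower at -0.46 ± 0.14 (0.0444). Bcl6 and Igfbp4 kept their calls with any array left out, while that of Rheb was lost without ASO 445236 replicate 4 or HSALR saline replicate 1, 3 or 4 (adjusted p up to 0.0651), and with no intensity trend (0.06). The calls of Htra1, Akt2 and Gsk3b were lost without ASO 445236 replicate 1, 2 or 4 or HSALR saline replicate 1 or 3, and for some of them without ASO 445236 replicate 3, HSALR saline replicate 2 or 4, ASO 190401 replicate 2 or 4 or WT replicate 3 or 4 (up to 0.137, 0.12 and 0.15). On chip 1 alone, which holds both groups, the calls of Akt2 (0.0514) and Gsk3b (0.0579) were lost. With no detection filter those of Htra1 (0.0702), Akt2 (0.113) and Gsk3b (0.0758) were lost, with chip position those of Htra1 (0.0627) and Akt2 (0.0603), with no intensity trend that of Htra1 (0.0509), and under median scaling that of Gsk3b (0.299). The count of 8 pathway genes was 2 to 5 without any 1 of the ASO 445236 or HSALR saline arrays or without ASO 190401 replicate 2 or 4 or WT replicate 3, fits in which 8.83% to 11.8% of all probes were called, against 12.1% with all arrays. Beside Igfbp5 and these genes, 3 of 9 fibroblast markers were higher and 0 lower, with summed levels of 15840.3 to 19403.3 under ASO 445236 and 12992 to 14729 in HSALR saline. Adipocyte markers were higher in 3 of 3, with summed levels of 1028.79 to 3419.14 under ASO 445236 and 383.507 to 1016.87 in HSALR saline. Myeloid markers were higher in 7 of 10 and lower in 0, with summed levels of 2491.67 to 4034.35 under ASO 445236 and 797.304 to 1696.24 in HSALR saline, while Ptprc and Itgam were below background on all these arrays. Endothelial markers were higher in 0 of 7 and lower in 1. Markers of regenerating or denervated fibres were higher in 0 of 9 and lower in 1. The part of these cell types in the results was not tested.

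Under ASO 190401 against HSALR saline, 5 pathway genes were higher and 4 lower, where 14.9% of all genes were called, 7.56% higher and 7.31% lower. Rheb rose by 0.40 ± 0.070 (limma adjusted p = 0.000717), Stc2, a secreted inhibitor of the protease PAPP-A, by 0.85 ± 0.22 (0.0143) and Foxo1, a transcription factor restrained by AKT, by 0.71 ± 0.20 (0.0256). Gsk3b was lower at -0.70 ± 0.14 (0.0032), Igfbp7 at -0.41 ± 0.10 (0.0133) and Pik3r3, a regulatory subunit of PI3K, at -0.45 ± 0.13 (0.0257). Rheb, Gsk3b and Igfbp7 kept their calls with any array left out, though Igfbp7 and Pik3r3 did not under median scaling (0.237 and 0.253), while Stc2 lost it without replicate 4 of either group (adjusted p up to 0.056). Foxo1 lost it without ASO 190401 replicate 1, 2 or 4 or HSALR saline replicate 1, 2 or 3 (up to 0.0748), and Pik3r3 without ASO 190401 replicate 1 or 4 or HSALR saline replicate 3 or 4 (up to 0.0944). The count of 9 was 4 or 5 without ASO 190401 replicate 1 or 4 or HSALR saline replicate 2, 3 or 4, fits in which 9.6% to 10.7% of all probes were called, against 13.9% with all arrays. With the Xist covariate 5 were called, against 7.99% of all probes, and which genes they were is not given. Fibroblast markers were lower in 2 of 9 and higher in 0, with summed levels of 13520 to 15005.6 under ASO 190401 and 12992 to 14729 in HSALR saline. Markers of regenerating or denervated fibres were higher in 2 of 9, myeloid markers higher in 1 of 10, and adipocyte and endothelial markers called in 0. The part of these cells was not tested.

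Against WT, 4 pathway genes were higher and 6 lower under ASO 190401, where 9.87% of all genes were called, 4.74% higher and 5.12% lower. Under ASO 445236, 3 were higher and 4 lower, where 10.5% of all genes were called, 5.81% higher and 4.65% lower. Of the 5 IGF binding and proteolysis genes, 4 were lower and 1 higher under ASO 190401 and 3 were lower and 0 higher under ASO 445236. Htra1 was -1.20 ± 0.13 under ASO 190401 (limma adjusted p = 1.06e-05) and -1.07 ± 0.13 under ASO 445236 (5.31e-05). Igfbp7 was -0.92 ± 0.10 under ASO 190401 (1.39e-05) and -0.59 ± 0.10 under ASO 445236 (0.00165), and Igfbp4 was -0.96 ± 0.11 under ASO 190401 (2.33e-05). Grb10 was -0.99 ± 0.15 under ASO 190401 (0.000388) and -1.25 ± 0.15 under ASO 445236 (5.13e-05), and Jak2 was 0.76 ± 0.17 under ASO 190401 (0.00772) and 1.03 ± 0.17 under ASO 445236 (0.000926). Foxo1 was higher by 1.30 ± 0.20 under ASO 190401 (0.000397), and Bcl6 by 0.54 ± 0.11 (0.00543) and Gsk3b by 0.67 ± 0.14 (0.00715) under ASO 445236. Fibroblast markers were lower in 7 of 9 cases under ASO 190401, with a summed level of 13520 to 15005.6, and in 2 of 9 under ASO 445236, with 15840.3 to 19403.3, against 20617.9 to 23149.6 in WT, and 0 of 9 were higher under either. Under ASO 190401 against WT, markers of regenerating or denervated fibres were higher in 5 of 9, adipocyte markers lower in 2 of 3, endothelial markers lower in 2 of 7 and myeloid markers lower in 1 of 10. Under ASO 445236 against WT, markers of regenerating or denervated fibres were higher in 4 of 9, myeloid markers higher in 4 of 10, endothelial markers lower in 3 of 7 and adipocyte markers called in 0 of 3. Summed levels of the markers of regenerating or denervated fibres were 5838.89 to 9061.12 under ASO 445236, 6824.09 to 9591.67 under ASO 190401 and 5083.05 to 5698.35 in WT. The part of all these cell types in the comparisons with WT was not tested.

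**Figure D4:**
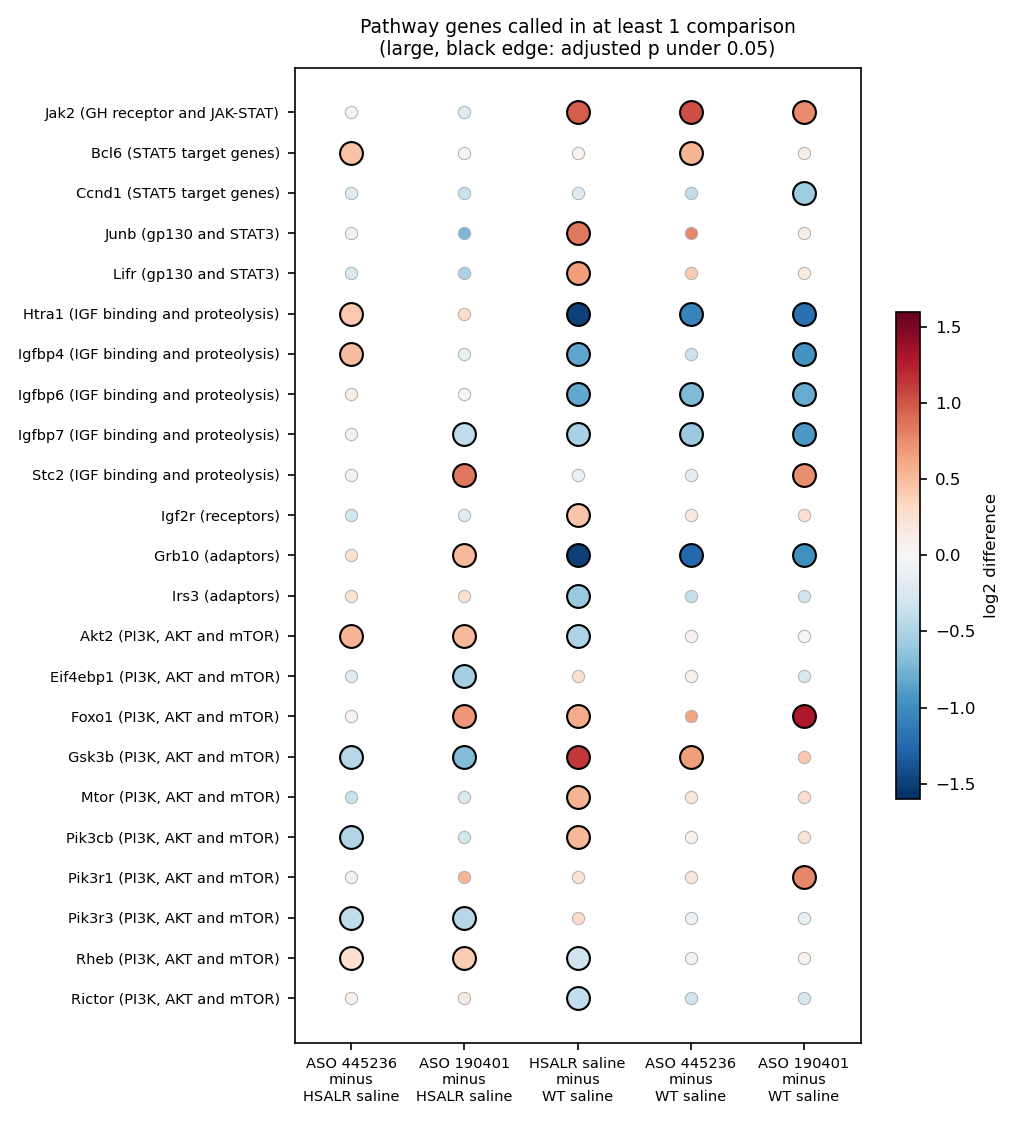
Log2 difference (colour, blue lower and red higher) of the pathway genes called in at least 1 of 5 comparisons (horizontal axis), with each gene's list in brackets (vertical axis) and large black-edged points for an adjusted p under 0.05. Htra1, Igfbp6, Igfbp7 and Grb10 are lower and Jak2 higher in all 3 comparisons with WT.

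The genes whose levels followed Socs2 most closely over the 16 arrays, among 8724 compared, were Zfp451 (Pearson r = 0.883), Zfp280d (0.877), Srsf1 (0.858), Ppp1r3f (0.832) and Fam193b (0.827). Without ASO 445236 replicates 3 and 4, which lay farthest from the median of Socs2, r was 0.845, 0.81, 0.811, 0.797 and 0.766. These values describe the arrays and share the groups, the chips and the Xist split. The closest, Zfp451, was 7.45 ± 0.15 under ASO 445236, 7.78 ± 0.090 under ASO 190401, 7.61 ± 0.062 in HSALR saline and 7.71 ± 0.049 in WT (SD, n = 4 each).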

How the data were processed

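Per the file headers, the authors' deposited table holds an intensity and a detection p-value for each probe and array. From 6907 to 7499 intensities on an array are negative, which shows an earlier background subtraction by a method not given in the sources. The submitters' processing notes name affy, with no role. The authors' deposited matrix of processed intensity values was an alternative. Gene names come from the platform annotation.

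Using limma 3.58.1 in R 4.3.3, background was corrected by normexp from the detection p-values (offset 16), followed by quantile normalization and log2. Probes detected (p under 0.05) on 4 or more arrays were kept (24 of 12364 missed a value, treated as missing, none of a member). A fit of group means, with 12 residual degrees of freedom, gave limma's moderated tests (two-sided, prior variance following intensity), adjusted by Benjamini-Hochberg over all probes, with a threshold of 0.05. The code of the fit was checked on simulated data with independent noise and no chip effect, which does not address chip differences here. Correlations of replicate arrays found 0 identical pairs. A gene not above background on any array of 1 group is given as at least N-fold, against the higher of the lowest signal above background and its own value on each array.

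Members, gene lists and tests were chosen with earlier results of these data known. Pathway genes named are, per comparison, up to 6 called with the smallest adjusted p. Alternatives were 8 other settings, 16 with 1 array left out and 2 with 1 chip alone, and 2 added after the values were seen (Xist detection as a covariate, and a slope of chip position).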

Additional observations from a re-analysis of the deposited data

How the results depend on the processing

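No paired analysis was possible because the replicate numbers follow the order of deposit and link no samples. Calls of Igfbp5 and the brighter Ghr probe under both ASOs against HSALR saline, and in HSALR saline against WT, held under every other setting. So did those of Igf1 in HSALR saline and under ASO 190401 against WT, and of Socs3 under ASO 190401 against HSALR saline. The Socs3 call in HSALR saline against WT also held, except that Xist detection, added after the values were seen, ended it. Members called, with 1 array left out, ran from 2 to 3 for ASO 445236 against HSALR saline, 3 to 3 for ASO 190401 against HSALR saline, 4 to 6 for HSALR saline against WT, 1 to 3 for ASO 190401 against WT and 0 to 1 for ASO 445236 against WT. Pathway genes called ran from 2 to 8, 4 to 10, 13 to 17, 7 to 11 and 6 to 9 in the same order. For ASO 445236 against WT, 1 member was called with no background correction, median scaling, chip position or Xist as a covariate. For ASO 190401 against WT, 1 was called with no intensity trend and on chip 2 alone. Pathway genes called for ASO 445236 against HSALR saline numbered 3 with no detection filter, 5 with no intensity trend and 4 with chip position, where 4.67%, 10.7% and 10.4% of all probes were called, against 12.1% before. For ASO 190401 against HSALR saline 5 were called with Xist, where 7.99% of all probes were called, against 13.9% before. Against WT, median scaling gave 16 for ASO 190401 and 12 for ASO 445236, where 20.8% and 16.5% of all probes were called, against 9.13% and 9.72% before.

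Median scaling put the median difference of all probes at 0.16 (ASO 445236) and 0.17 (ASO 190401) against HSALR saline and at 0.14 and 0.17 against WT, in the same order of oligos. Of the probes called, 85.4%, 86.4%, 88.6% and 85.8% were then higher, against 50.3%, 51.4%, 54.2% and 47.3% under quantile normalization. It ended the calls of Socs3 under ASO 445236 (adjusted p = 0.151), Igf2 under ASO 190401 against WT (0.422), Gsk3b under ASO 445236 (0.299) and, under ASO 190401, Igfbp7 (0.237) and Pik3r3 (0.253), and it made Igf1 under ASO 445236 against HSALR saline (0.0204), Igfbp3 under ASO 190401 against WT (0.0421) and Igf1r under ASO 445236 against WT (0.0342) pass. The cause was not tested.

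Differences that changed sign were uncalled in both fits. Igfbp3 in ASO 445236 against HSALR saline became 0.058 with no background correction, 0.041 with median scaling, 0.13 with the authors' deposited matrix and 0.11 with chip position, and in ASO 190401 against HSALR saline -0.011 with chip position. Igf1r in ASO 190401 against HSALR saline became 0.061 with no background correction and 0.080 with the deposited matrix. In ASO 445236 against WT, median scaling gave 0.21 for Ghr probe 1, 0.18 for Igf2 and 0.16 for Igfbp5, and Xist gave 0.049 for Ghr probe 1, 0.030 for Igf2 and -0.049 for Socs3. Xist also gave -0.022 for Ghr probe 2 in ASO 190401 against HSALR saline and -0.020 for Ghr probe 1 in ASO 190401 against WT. With 1 array left out, ASO 445236 against HSALR saline ran from -0.11 to 0.11 for Igfbp3, and ASO 190401 against HSALR saline from -0.15 to 0.11 for Igfbp3 and from -0.14 to 0.14 for Igf1r. ASO 190401 against WT ran from -0.17 to 1.16 for Cish and from -0.095 to 0.078 for Ghr probe 1. ASO 445236 against WT ran from -1.04 to 0.29 for Cish, from -0.031 to 0.16 for Socs3, from -0.086 to 0.043 for Igf2, from -0.17 to 0.12 for Igfbp5 and from -0.14 to 0.029 for Ghr probe 1.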

Other observations

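Mup2, a major urinary protein gene that growth hormone and STAT5 regulate in mouse liver, followed Xist. It was 8.91, 4.80, 7.08 and 6.77 under ASO 445236, 10.83, 10.91, 8.99 and 9.60 under ASO 190401, 8.70, 5.10, 4.65 and 4.83 in HSALR saline, and 6.58, 8.81, 12.23 and 10.86 in WT. The 9 arrays with Xist lay above all 7 without it. Mup2 was higher under ASO 190401 than in HSALR saline by 4.26 ± 1.04 (limma adjusted p = 0.00974) and lower in HSALR saline than in WT at -3.80 ± 1.04 (0.011). Both comparisons cross chips, and arrays with Xist numbered 4 of 4 under ASO 190401, 1 of 4 in HSALR saline and 3 of 4 in WT. No value with the Xist covariate is given for Mup2. Of 6 hepatocyte markers on the array only Mup2 was kept for the test. Alb and Fgb, which define hepatocytes, were below background on all 16 arrays. Ttr, Apoa1 and Apoa2 were above background on at least 1 of the 4 ASO 190401 arrays and on 0 arrays of the other groups. The summed level of the 6 was 65.0378 to 506.042 under ASO 445236, 541.281 to 2316.56 under ASO 190401, 53.5197 to 442.197 in HSALR saline and 133.656 to 4833.39 in WT. Its part in the Socs2 and Cish values was not tested.

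The slope of Cish with position on the chip, tried after its values were seen, was 0.41 per position on chip 1 (limma adjusted p = 0.312) and -0.41 on chip 2 (0.151), neither called.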
